A study of Mus musculus with 6 samples.

Results

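The chloride intracellular channel (CLIC) family was followed in RNA-seq data from the striatum of male WT and Shank3 TG mice. The TG line carries an EGFP-tagged Shank3 transgene, and both genotypes were kept on the C57BL/6J strain and sampled at an age of 12 weeks, with 3 mice per group and 1 library per mouse. The promoter that drives the transgene is not given in the sources used here. The family comprises the 5 rows of the deposited table, out of 46078, whose Ensembl identifiers carry the symbols Clic1, Clic3, Clic4, Clic5 and Clic6 in GENCODE M21. It was chosen on the values of Clic6, which was higher in TG than in WT mice. The TG against WT differences of the members are therefore given below as a description. No P value is given for a single member, and the counts of members past a threshold are set beside the share of all genes with nothing read from them.

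CLIC proteins are small proteins that occur both in soluble form and at membranes. Their fold resembles that of omega-class glutathione transferases, and near its start lies a glutaredoxin-like redox site with a cysteine. Although the family is named for chloride conductance, its members are also known for roles at the actin cortex. Clic1 is known from macrophages and microglia, and Clic4 from endothelial tube formation and transforming growth factor signaling. Clic5 is a partner of ezrin and radixin in the stereocilia of hair cells. Clic3 acts in integrin recycling and as a secreted oxidoreductase. Clic6 is a longer protein of secretory epithelia, including the choroid plexus, and was described as a partner of D2-like dopamine receptors.

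The annotated coding sequences show how the members are related. Clic1, Clic3, Clic4 and Clic5 have coding sequences of 241, 237, 253 and 251 codons, whereas that of Clic6 has 596. The redox site begins at codon 24, 23, 35 and 32 in the first 4 genes and at codon 379 in Clic6. Between 214 and 219 codons follow its first codon, that of the cysteine, in each gene. Thus the additional length of Clic6 lies before the redox site. The following 60 coding bases of each gene are shown because they hold this shared site, whose 12 bases, beginning with the cysteine codon, are in capitals. They were read from the GENCODE M21 transcript with the longest coding sequence, 5′ to 3′ on the coding strand.

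Clic1, coding bases 46 to 105: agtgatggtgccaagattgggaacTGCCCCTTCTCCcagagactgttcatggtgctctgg
Clic3, coding bases 43 to 102: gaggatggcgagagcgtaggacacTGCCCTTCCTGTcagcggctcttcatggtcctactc
Clic4, coding bases 79 to 138: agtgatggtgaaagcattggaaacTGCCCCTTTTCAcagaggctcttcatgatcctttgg
Clic5, coding bases 70 to 129: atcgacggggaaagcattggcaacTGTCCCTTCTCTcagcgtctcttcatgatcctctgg
Clic6, coding bases 1111 to 1170: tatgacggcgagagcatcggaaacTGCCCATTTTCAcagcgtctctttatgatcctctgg

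In this stretch Clic6 had 49 of the 60 bases in common with Clic4, 48 with Clic5, 41 with Clic1 and 42 with Clic3. Clic1 and Clic3 were the least alike, with 36 identical bases. Over the best local alignment of the whole coding sequences, Clic4 and Clic5 were identical at 73.1% of 715 aligned positions, and Clic6 was identical to Clic4 at 71.6% of 682 and to Clic5 at 71.5% of 691. The longest run of identical bases that any pair of members shared was 23 bases, between Clic4 and Clic5. For Clic6, the longest run shared with another member was 17 bases, with Clic5.

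The genes lie apart from each other on GRCm38. Clic1 (ENSMUSG00000007041) lies on the plus strand of chromosome 17 from 35049966 to 35058749, and Clic5 (ENSMUSG00000023959) on the same strand of that chromosome from 44188584 to 44280172. Clic3 (ENSMUSG00000015093) lies on chromosome 2 from 25456838 to 25458776 and Clic6 (ENSMUSG00000022949) on chromosome 16 from 92485736 to 92541243, both on the plus strand. Clic4 (ENSMUSG00000037242) lies on the minus strand of chromosome 4 from 135213969 to 135272814. Each is annotated as protein-coding, and the exons of the 5 genes share 0 bases with exons of other annotated genes.

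Between 27689589 and 36647626 reads per library fell on genes. Shank3 itself had 26044 to 29891 normalized read counts in TG and 12918 to 13865 in WT mice, a log2 difference of 1.05 (standard error 0.06, adjusted P = 7.04e-05 by limma), as the labels imply. Medium spiny neuron markers were abundant in each library, with summed values of 127810 to 178339 in TG and 154427 to 178342 in WT mice, lowest in TG replicate 1. Of their 10 genes, 1 was higher and 9 were lower in TG mice, and limma, edgeR and DESeq2 called 0, also at an unadjusted P value under 0.05. Over all 17605 genes tested, limma, edgeR and DESeq2 passed 758, 771 and 431 at that unadjusted threshold. The unadjusted counts of each list below are to be set beside these. TG replicate 1 also stood apart by its choroid plexus markers, which are described beside Clic6. In these tissue samples, fewer cells of a type and less RNA per cell cannot be told apart.

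All 5 members passed the filter of a mean of at least 10 normalized read counts and were tested among 17605 genes. Clic4 was the most abundant by read number, with 3118 to 5079 reads per library, and its mean lay above that of 89.4% of the genes tested. Clic1, Clic5 and Clic6 had between 229 and 616 reads per library, near the middle of all genes. Clic3 had 57 to 81 reads, so counting error alone gives it a coefficient of variation of 12.4% in TG and 12.2% in WT mice.

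To compare the levels of different genes, the normalized read counts were divided by the annotated exon length. On this scale the order was Clic4, Clic1, Clic6, Clic3 and Clic5, from 575 ± 48.6 (SD, n = 6 libraries) to 150.3 ± 14.9, 93.97 ± 28.0, 65.7 ± 6.41 and 40.1 ± 1.78 counts per kb. The level of Clic4 was 3.83 times that of Clic1 (higher in 6 of 6 libraries), and that of Clic3 was 1.63 times that of Clic5 (6 of 6). Each of these ratios had a P of 0.0313 in the two-sided exact sign-flip permutation test over 6 libraries, the smallest this design can give. The adjusted P over 4 pairs of neighbours was 0.0417, but it also rests on the P value of Clic1 to Clic6. The TG values of Clic6 led to the choice of the family, so nothing is read from this adjusted P. The pairs with Clic6 are given without a P value for the same reason. The log2 ratio of Clic1 to Clic6 was 1.07 in WT and 0.37 in TG mice, and the level of Clic1 was the higher in 6 of 6 libraries. In WT mice alone the level of Clic6 was 1.11 times that of Clic3, and in WT replicate 2 it was the lower of the pair. In TG mice alone it was 1.74 times that of Clic3. The ratios depend on the annotated length, which for Clic5 was 8.782 kb of exons. Per length of the longest transcript, the log2 ratio of Clic3 to Clic5 was 0.26 in place of 0.71. The level of Clic6 in WT mice was 75.02 ± 3.48 (SD, n = 3) counts per kb.

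**Figure D1:**
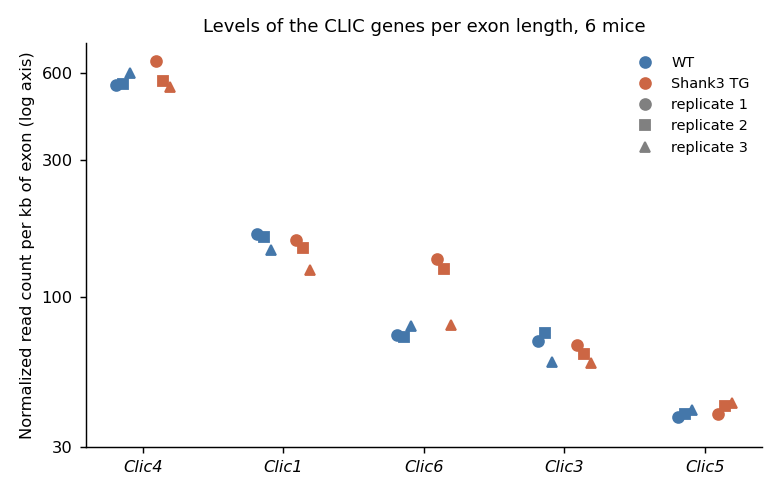
Normalized read count per kb of annotated exon (log axis) of the 5 CLIC genes in each of 6 mice, WT in blue and Shank3 TG in orange, with the replicate number as the symbol. Clic4 lies between 534 and 663 in all mice, whereas the points of Clic6 reach from 72.6 in WT replicate 2 to 135 in TG replicate 1.

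Clic6, the member whose rise led to the choice of the family, had 529, 487 and 311 normalized read counts in TG replicates 1, 2 and 3. In WT replicates 1, 2 and 3 it had 287, 284 and 309. So TG replicates 1 and 2 stood well above the WT mice, while TG replicate 3 lay at the upper end of their range. The gap between TG replicate 3 and WT replicate 3 was 1.37 normalized read counts, against a counting SD of 17.4 for the TG value, which rests on 319 reads. The groups thus did not overlap in value, but the lowest TG mouse could not be told apart from the highest WT mouse at this depth. The mean was 442 ± 116 (SD, n = 3) in TG and 294 ± 13.6 (SD, n = 3) in WT mice, a ratio of 1.51 and a log2 difference of 0.55 (standard error 0.17). It was 0.41 without TG replicate 1, 0.46 without TG replicate 2 and 0.79 without TG replicate 3.

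The spread of Clic6 was unequal in the 2 genotypes. In WT mice the coefficient of variation was 4.64%, below the 5.89% that counting error alone would give at these read numbers. In TG mice it was 26.2%, against a counting error of 4.72%. Since Clic6 was chosen for its high values in TG replicates 1 and 2, the spread in TG mice restates that choice. On the log2 scale the SD was 0.41 in TG and 0.07 in WT mice.

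Clic1 had 284, 266 and 223 normalized read counts in TG replicates 1, 2 and 3 and 296, 291 and 262 in WT replicates 1, 2 and 3. Its TG values overlapped with the WT values, and TG replicate 3 was the lowest of the 6 libraries. The log2 difference was -0.14 (standard error 0.11, 95% interval -0.38 to 0.10), and it was -0.04 without TG replicate 3. Summed microglial markers were between 13925 and 15110 in TG and between 15297 and 15929 in WT mice. All 12 markers had a lower mean log2 value in TG mice, with a median log2 difference of -0.12. In 6 of the 12, among them Cx3cr1 (1721 ± 20.8 in TG and 1877 ± 106 in WT mice, SD, n = 3), each TG value lay below the WT values, which held for 5.05% of all genes tested. Limma, edgeR and DESeq2 called 0 of the 12, with 4, 5 and 3 at an unadjusted P value under 0.05, where limma passed 4.31% of all genes. The part of these cells in the value of Clic1 was not tested.

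Clic4 had 4358, 3695 and 3511 normalized read counts in TG replicates 1, 2 and 3 and 3569, 3616 and 3936 in WT replicates 1, 2 and 3. TG replicate 1 was the highest and TG replicate 3 the lowest of all 6 libraries, so the WT values lay within those of the TG mice. The log2 difference was 0.05 (standard error 0.08, 95% interval -0.12 to 0.22), and it was -0.04 without TG replicate 1. The variation of Clic4 in TG mice, 11.6%, exceeded its counting error of 1.59%. Endothelial markers, whose sum was 13642 to 14257 in TG and 12715 to 14508 in WT mice, did not set TG replicate 1 apart. Of these 12 markers 4 were higher and 8 lower, and limma, edgeR and DESeq2 called 0, with 1, 2 and 2 at an unadjusted P value under 0.05. In TG replicate 1, 7 of the 10 leptomeningeal and fibroblast markers exceeded their WT values, with a median log2 ratio to the WT mean of 0.35, against -0.49 and -0.58 in TG replicates 2 and 3. The share of all genes above their WT values in TG replicate 1 was not counted, so nothing is read from the 7 of 10. The part of leptomeningeal cells and fibroblasts in the value of Clic4 was not tested.

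Clic5 was the least variable member. It had 344, 365 and 376 normalized read counts in TG replicates 1, 2 and 3 and 334, 342 and 353 in WT replicates 1, 2 and 3. Although TG replicates 2 and 3 exceeded each WT mouse, TG replicate 1 lay within the WT range. The log2 difference was 0.07 (standard error 0.08, 95% interval -0.10 to 0.25). The variation within each genotype, 4.47% in TG and 2.81% in WT mice, was smaller than the counting error.

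Clic3 had 68.6, 64.1 and 59.4 normalized read counts in TG replicates 1, 2 and 3 and 71.0, 75.8 and 59.9 in WT replicates 1, 2 and 3. The groups overlapped, with a log2 difference of -0.10 (standard error 0.16, 95% interval -0.44 to 0.25).

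**Figure D2:**
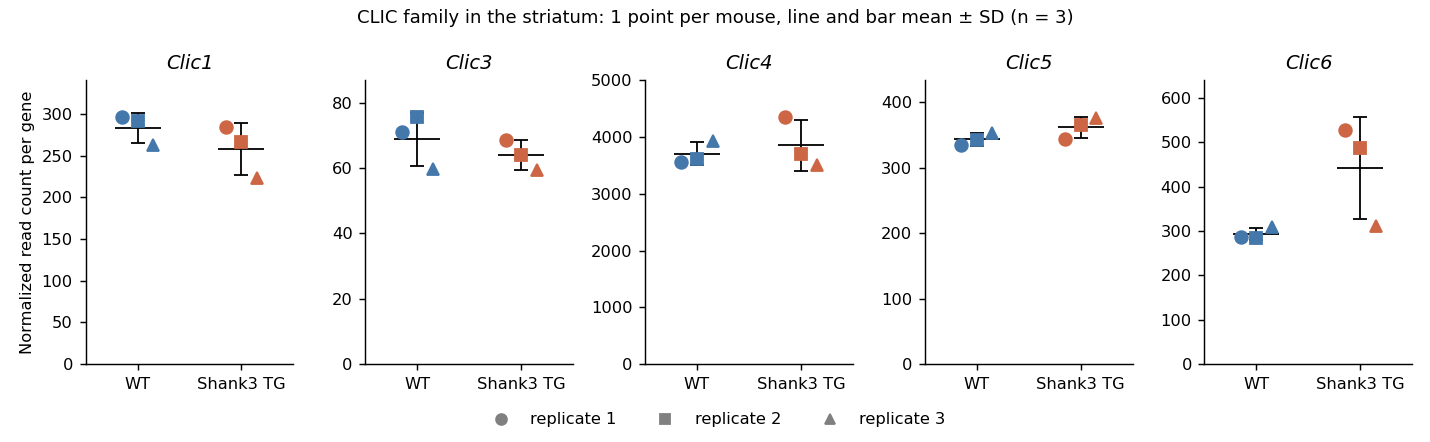
Normalized read counts of the 5 CLIC genes in 3 WT and 3 Shank3 TG mice, with 1 point per mouse, the replicate number as the symbol, and a line and bar for the mean ± SD; each axis starts at 0. In Clic6, TG replicates 1 and 2 lie at 529 and 487 and TG replicate 3 at 311, level with the WT mice, while the groups overlap in the other 4 genes.

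Over the family, 3 members had a higher and 2 a lower mean in Shank3 TG mice. At an adjusted P value under 0.05, 0 of the 5 members were called by limma, by edgeR's quasi-likelihood test or by DESeq2, where these called 0.00568%, 0.00568% and 0.0398% of all genes tested. At an unadjusted P value under 0.05, each of the 3 tools passed 1 member, Clic6, and limma passed 4.31% of all genes. In 1 member each TG mouse exceeded each WT mouse and in 0 members the reverse held, against 5.06% and 5.05% of all genes. Since Clic6 was chosen for this difference, nothing can be read from these counts.

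**Figure D3:**
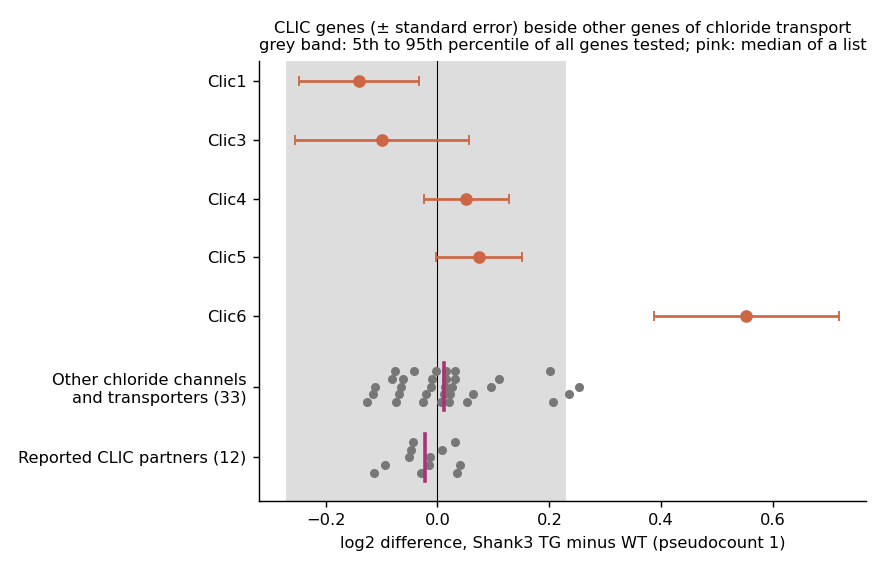
Difference between Shank3 TG and WT mice on the log2 scale (pseudocount 1) for the 5 CLIC genes, with bars of 1 standard error from the limma fit, and for single genes of the other chloride channels and transporters and of reported CLIC partners (grey points, pink line at the median). Clic6 lies at 0.55, outside the grey band from -0.27 to 0.23 that holds the 5th to 95th percentile of all genes tested, and the other 4 members lie within it.

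Because Clic6 is also a choroid plexus transcript, its values were set beside 25 markers of that epithelium, of which 24 were tested. Ttr, the transthyretin gene and the most abundant of the defining markers, had 13701, 1122 and 204 normalized read counts in TG replicates 1, 2 and 3 and 322, 120 and 432 in WT replicates 1, 2 and 3. In TG replicate 1, 22 of the 24 markers exceeded each WT mouse, and the median of their log2 ratios to the mean of the WT mice was 2.40. In TG replicate 2, 12 of the 24 did so, with a median of 0.46, and in TG replicate 3, 3 did so, with a median of -0.26. By these medians, TG replicates 1 and 2, the libraries in which Clic6 was high, were also those with the higher choroid plexus markers. The share of all genes above each WT mouse in a single TG library was not counted, so nothing is read from the counts of markers. In 3 of the 24 markers all TG mice exceeded each WT mouse, against 5.06% of all genes tested. In 0 of the 24 the reverse held, against 5.05%. The summed markers were 32495, 12304 and 10953 in TG replicates 1, 2 and 3 and 11091 to 12213 in WT mice, and Enpp2, which oligodendrocytes also express, made up most of this sum in each library but TG replicate 1.

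The steps between the TG libraries were compared over all 24 tested markers. From TG replicate 1 to TG replicate 2, Clic6 was 1.09 times lower, and the markers were lower by a median factor of 3.45, with a range from 0.91 to 15.3. The factor exceeded that of Clic6 in 22 of the 24, among them Ttr (12.2), the folate receptor gene Folr1 (8.34) and the klotho gene Kl (3.47), but not in Ace (1.06) and Car12 (0.91). From TG replicate 2 to TG replicate 3, the factor was 1.57 for Clic6 and 1.41 for the median marker, with 11 of the 24 above Clic6 and 13 not. In this step the markers thus lay on both sides of Clic6, with the prolactin receptor gene Prlr at 8.08, Ttr at 5.51, Folr1 at 1.80 and Enpp2 at 0.96. Within the WT mice, Clic6 varied over a 1.09-fold range and the markers over a median range of 1.59-fold. The narrowest marker ranges were close to that of Clic6, as in F5 (1.10), Enpp2 (1.10) and Prlr (1.12), and the widest was that of Tmem72 (4.89). These ratios are given as values for single libraries and were not tested.

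The abundance of the markers in WT mice ranged widely. There Clic6 had 251 to 315 reads, Enpp2 6728 to 8426, Ttr 128 to 440 and Kl 58 to 87, whereas other defining markers had few. In these mice Kcnj13 had 0 to 5 reads, Slc4a5 4 to 18, the transcription factor gene Otx2 11 to 19 and Folr1 17 to 28. In TG replicate 3 the reads were 1 for Kcnj13, 3 for Slc4a5, 7 for Otx2 and 9 for Folr1, and Clic6 had 319. The median log2 difference of the 24 markers was 0.81, against 0.00 for all genes tested, with 20 higher and 4 lower. It was 0.02 without TG replicate 1, 1.37 without TG replicate 3 and 0.32 over the markers with a mean of at least 50. Limma, edgeR and DESeq2 each called 0 of the 24 at an adjusted P value of 0.05. At an unadjusted P value of 0.05 they passed 4, 13 and 7, against 758, 771 and 431 of the 17605 genes tested. How much choroid plexus tissue adds to the TG values of Clic6 was not tested.

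**Figure D4:**
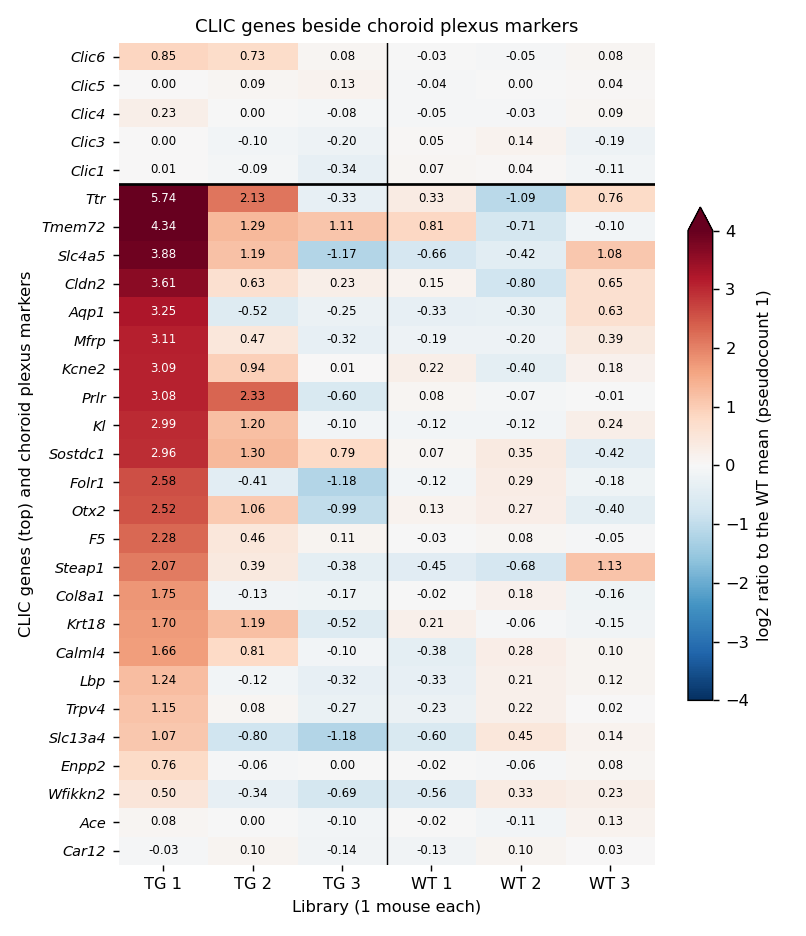
The log2 ratio of each library to the WT mean (pseudocount 1; rows are genes, columns are the 6 mice), with the 5 CLIC genes above the line and 24 choroid plexus markers below it, ordered by TG replicate 1. Ttr reaches 5.74 in TG replicate 1 and 2.13 in TG replicate 2, where Clic6 has 0.85 and 0.73, and the other CLIC genes stay between -0.34 and 0.23 in every library.

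The ependymal cells that line the ventricles gave another order of the libraries. Their markers had median log2 ratios to the WT mean of 0.06, -0.33 and -0.40 in TG replicates 1, 2 and 3, and their highest median, 0.55, fell in WT replicate 2. Foxj1, the regulator of motile cilia, had 333 ± 62.3 normalized read counts in TG and 379 ± 96.7 (SD, n = 3) in WT mice. Of the 11 ependymal markers tested, 1 was higher and 10 were lower in TG mice, with a median log2 difference of -0.18. Limma, edgeR and DESeq2 called 0 of these, with 2 at an unadjusted P value under 0.05 by each. All 10 leptomeningeal markers had a lower mean log2 value in TG mice, with a median of -0.25. For these the 3 tools also called 0, with 1 at an unadjusted P value by each.

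The genes whose profile over the 6 libraries came closest to that of Clic6 were sought among all genes tested. The measure was the root mean square difference of the log2 values, each centred on its own mean over the libraries. The closest were Asb4 (0.11), 9330198I05Rik (0.12), Gm37758 (0.13), Tmem255a (0.13) and Kdm6bos (0.13). Of these 5, Tmem255a alone was of similar abundance to Clic6. It had 587, 566 and 364 normalized read counts in TG replicates 1, 2 and 3 and 382, 406 and 356 in WT replicates 1, 2 and 3, so its groups overlapped. Asb4 had 54.1, 40.5 and 29.2 in TG replicates 1, 2 and 3 and 26.3 to 29.0 in WT mice. The other 3 had means between 14.8 and 32.4, where counting error is large, and Kdm6bos is an antisense gene whose reads cannot be told from those of its partner, since the kit does not mark strand. These genes were found by this search, and the likeness is a description of 6 libraries.

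By the same measure Clic4 was the family member nearest to Clic6, at 0.31, with 3.85% of all genes closer to Clic6, followed by Clic5 at 0.36 (28.1%), Clic1 at 0.38 (49.2%) and Clic3 at 0.40 (61.3%). Among the choroid plexus markers the nearest were Enpp2 at 0.28 and the calcium channel gene Trpv4 at 0.34. Ttr, at 1.91, was the farthest of the 24. The measure counts the size of a change as well as its direction. A gene that changes in the same libraries but by more is therefore scored as far. A gene that barely changes can score nearer, as Ace did at 0.34 with a log2 difference of -0.01. The values of the other members and of Trpv4 are therefore not read as likeness to Clic6. In TG replicates 1 and 2 the log2 ratio to the WT mean was 5.74 and 2.13 for Ttr and 0.85 and 0.73 for Clic6.

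Neighbouring genes on chromosome 16 were examined next. The first 3 annotated genes on either side of Clic6 were Rcan1, Gm46555 and 2410124H12Rik before it, and Gm49722, Runx1 and Gm26626 after it. Gm46555 and Gm49722 were not analysed here. Rcan1, a calcineurin regulator that ends 14.9 kb from Clic6, had 1646, 1683 and 1612 normalized read counts in TG replicates 1, 2 and 3 and 1655, 1620 and 1617 in WT replicates 1, 2 and 3. Its log2 difference was 0.01 (standard error 0.05). Runx1, a transcription factor gene 60.2 kb away on the other side, had 27.9 ± 3.76 in TG and 39.6 ± 10.1 (SD, n = 3) in WT mice, and its groups overlapped. 2410124H12Rik overlaps the Clic6 gene but not its exons and had at most 3.43 normalized read counts, and Gm26626 had at most 1.96. Kcne2, the choroid plexus potassium channel subunit, lies 188 kb from Clic6 and had 72.9, 15.7 and 7.79 in TG replicates 1, 2 and 3 and 5.61 to 9.16 in WT mice.

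Other genes of chloride transport were taken from a list of 42, of which 41 were matched and 33 tested. Their median log2 difference was 0.01, with 18 higher and 15 lower. Limma, edgeR and DESeq2 called 0 of them, with 2, 2 and 1 at an unadjusted P value under 0.05. The most abundant were Slc12a5, the potassium-chloride cotransporter that keeps neuronal chloride low (21046 ± 433 in TG and 21433 ± 494 in WT mice, SD, n = 3), Ttyh1 (15715 ± 277 and 15491 ± 674) and Ano3 (10776 ± 1455 and 10871 ± 549). The highest differences were those of Lrrc8a, the obligatory subunit of volume-regulated anion channels, at 0.25 (standard error 0.09), Ano1 at 0.24 (0.19) and Ano2 at 0.21 (0.26). Lrrc8a had 322, 382 and 334 normalized read counts in TG replicates 1, 2 and 3 and 279, 278 and 312 in WT replicates 1, 2 and 3, and was the only one of the 33 with TG values above the WT values. The lowest were Ano8 at -0.13 (0.05), the only one with TG values below the WT values, Ano7 at -0.12 (0.33) and Clcn2 at -0.11 (0.06). Over all genes tested, 5.06% had TG values above and 5.05% below the WT values, so nothing is read from these 2 genes. Cftr, the chloride channel of cystic fibrosis, had 60.9, 97.8 and 92.5 in TG and 99.6, 78.6 and 81.5 in WT replicates 1, 2 and 3, so the groups overlapped.

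Of 15 genes for reported CLIC partners, 12 were tested, with a median log2 difference of -0.02 (4 higher and 8 lower). Limma, edgeR and DESeq2 called 0 of the 12, and also passed 0 at an unadjusted P value under 0.05. Drd2, the dopamine receptor gene reported as a partner of Clic6, had 3158, 4362 and 3633 normalized read counts in TG and 3598, 4091 and 4309 in WT replicates 1, 2 and 3, a log2 difference of -0.11 (standard error 0.10). The groups overlapped. Its lowest value fell in TG replicate 1, where the medium spiny neuron markers as a list had a median log2 ratio to the WT mean of -0.35, against -0.34 for Drd2. Drd3 had 46.3 ± 13.9 in TG and 45.3 ± 15.2 (SD, n = 3) in WT mice, and Drd4 stayed under the filter with at most 6.01. The most abundant genes of this list, Hivep2 (Schnurri-2, a partner of Clic4), the motor gene Myo6 and the phosphatase gene Ppm1a, had log2 differences of 0.03, -0.01 and -0.01. The cytoskeletal linkers Ezr, Rdx and Msn had -0.03, 0.04 and -0.09.

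Among 6 genes of the related glutathione transferase and glutaredoxin folds, each tested, the median log2 difference was -0.01, with 3 higher and 3 lower. Limma, edgeR and DESeq2 called 0 of them, with 1, 1 and 0 at an unadjusted P value under 0.05. Gsto1, an omega-class transferase, had 563, 532 and 502 normalized read counts in TG and 496, 460 and 447 in WT replicates 1, 2 and 3. Its TG values lay above the WT values, with a log2 difference of 0.19. Such a separation held for 1 of the 6 genes and for 5.06% of all genes tested. The most abundant of the 6, Glrx2, Glrx3 and Glrx5, had 0.04, 0.02 and -0.04.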

How the data were processed

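Striatal RNA of 3 WT and 3 Shank3 TG mice was sequenced with an Illumina TruSeq RNA kit that does not mark strand. As the methods of the study state, the authors trimmed the reads (Trimmomatic 0.35), aligned them to GRCm38 (TopHat2 2.1.0) and counted them per gene (HTSeq). The deposited signal is the count divided by the size factor from DESeq2. The annotation release used for counting is not given in the sources used here. Dividing by each library's smallest value above 0 gave whole reads (within 0.01) for 100% of values. No library was left out.

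Of 46078 genes, 45143 matched GENCODE M21. A minimum mean of 10 left 17605 genes, whose log2(value + 1) entered a linear model in limma 3.58.1 (trended prior, Benjamini-Hochberg adjusted P values). A fold change on this scale understates that of low genes. edgeR 4.0.16 and DESeq2 1.42.0 on the recovered reads, TMM scaling, pseudocounts of 0.5 and 5, no filter, a minimum mean of 50, each library left out and the replicate number as a block were alternatives. The fits were tested on simulated data. Levels per kb were compared by exact sign-flip permutation over libraries, with scipy 1.17.1. Coding sequences were aligned with Biopython 1.88.

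The family and the gene lists were chosen with earlier results of these data known. Genes named are the 5 members, the 5 genes with the profile most like that of Clic6, its neighbours, genes from the 3 most abundant of each list, 6 choroid plexus markers, the 3 highest and lowest chloride genes, Shank3 and Cftr. Prlr, Trpv4, Ace, F5, Tmem72, Gsto1, Drd2, Drd3, Drd4 and the linkers Ezr, Rdx and Msn were named after their values were seen.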

Additional observations from a re-analysis of the deposited data

How the results depend on the processing

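The count of genes called over the whole table was 1 with limma, 7 with DESeq2 and 5 without a filter on low values. It was between 1 and 2 with each library left out in turn, with 2 without TG replicate 2 or without TG replicate 3. With the replicate block it was 1 and the log2 difference of Clic6 stayed at 0.55. Genes at an unadjusted P value under 0.05 by limma were 1024 with the block and 758 without it. The same-numbered mice had correlations of 0.05, 0.02 and 0.09 in their deviations from the group means. Mice with different numbers had -0.12 to 0.08. With 3 mice per group, these values cannot decide whether same-numbered mice share more than a number. The 14 alternatives gave log2 differences of 0.41 to 0.79 for Clic6, -0.21 to -0.04 for Clic1 and -0.19 to -0.03 for Clic3. They gave -0.04 to 0.12 for Clic4 and 0.05 to 0.11 for Clic5. The filters on low values and the block could not change these differences. Each shift was smaller than the SD between mice within the groups, but this yardstick is wide. For Clic6 it holds the TG SD of 0.41. By its own SD the choroid plexus median also passed, at 0.02 without TG replicate 1. No stability is therefore read from it. The median of the choroid plexus markers was 1.33 with edgeR and 1.29 with DESeq2, in place of 0.81 with limma. Limma compares means of log2 values, whereas edgeR and DESeq2 model group means of reads, in which a single high library weighs more. How much this adds to the difference between tools was not tested. The limma median was 0.32 over the smaller set of markers with a mean of at least 50. With WT libraries only, the log2 ratios of levels were 1.84 for Clic4 over Clic1, 1.07 for Clic1 over Clic6 and 0.79 for Clic3 over Clic5, and with TG libraries only 2.03, 0.37 and 0.62. The exact test over 3 libraries cannot give a P value under 0.25, so no ratio could pass the threshold there. With 57 to 81 reads per library, depth limits what can be seen of Clic3. The P values of the fits weigh a difference against the spread between these mice. Those of the sign-flip test rest on the ratios within the 6 libraries.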
